A study of Caenorhabditis elegans with 2 samples.

Results

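MicroRNA genes outside the heterochronic set were the 261 miRNA genes of the Ensembl WBcel235 annotation less lin-4, let-7, mir-48, mir-84, mir-241 and mir-237, which left 255 genes of 46890 annotated on the nuclear chromosomes. They were chosen from the annotation alone. LIN-14 peak summits were assigned to a gene when they fell in its window, which reached from 1000 bp before its 5′ end to 200 bp past it. Of the 255 genes, 105 lay wholly within the span of a protein-coding gene, 73 of them on the same strand as that gene and 32 only opposite one. The other 150 were taken as intergenic, among them mir-242 and mir-356.1, which overlap such a gene in part. The samples were Caenorhabditis elegans of strain OP768, an unc-119(tm4063) mutant line. It stably carries the transgene wgls768, which joins lin-14::TY1::EGFP::3xFLAG to a working unc-119(+) copy, so all samples held tagged LIN-14. Whole L1 larvae of both sexes at 6 hours, synchronised by starvation after bleaching, were sonicated and precipitated with an antibody to GFP (ChIP-seq). There was 1 group with 2 biological replicates of 1 line and no second condition. The labels do not say whether the larvae had been fed, and whole animals do not show in which tissue a site was occupied.

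A microRNA gene is transcribed as a long primary transcript, from which a hairpin is cut and processed to a short mature RNA. Bases 2 to 8 of that RNA, the seed, pair with target mRNAs, and microRNAs with 1 seed form a family with overlapping targets. The annotated 5′ end of most of these genes is the end of the hairpin and not the start of transcription, which can lie farther upstream. A microRNA inside an intron may be made from the transcript of its host gene or from a promoter of its own. LIN-14, a transcription factor of the heterochronic pathway, holds cells in their earliest larval programme until the lin-4 microRNA represses it.

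All 6 genes of the mir-51 family had a LIN-14 summit in the window, against 25.5% of the 255 genes and 20.9% of protein-coding genes. These 6 genes are redundantly essential in embryos and related in sequence to vertebrate miR-100. They stand on 4 separate peaks, so they are not 6 separate cases. Of the 15 seeds carried by 3 or more of the 255 genes, 2 had a summit at every gene, that of this family among them. The mature sequences of the 6 genes are shown because this seed (capitals) marks a family with a summit at every gene. They were read 5′ to 3′ from the RefSeq copy of the WBcel235 genome.

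mir-51: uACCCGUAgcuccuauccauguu
mir-52: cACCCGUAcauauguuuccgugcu
mir-53: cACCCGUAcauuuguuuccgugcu
mir-54: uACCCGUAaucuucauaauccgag
mir-55: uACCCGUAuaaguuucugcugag
mir-56: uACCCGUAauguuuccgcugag

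The 6 genes share the seed ACCCGUA but lie on 2 chromosomes and make up 4 clusters, where a cluster is a chain of genes on 1 strand with 5′ ends up to 1000 bp apart. Each of the 4 clusters has a separate peak. The genes mir-54, mir-55 and mir-56 stand side by side on the minus strand of chromosome X (13144691 to 13145094), opposite to the gene F09A5.3 and within its intron. One peak at 13145076 to 13145690 covers the region just upstream of mir-54, with its summit at 13145366, and it was the strongest at any of the 255 genes. Scores are strengths given by the authors' peak caller on a scale that is not given, and the replicate lists run lower than the joint list. This peak scored 3502, rank 97 of the 11507 peaks that passed the irreproducible discovery rate (IDR) threshold, with 1980 in replicate 1 and 1543 in replicate 2. The summit lies 272 bp upstream of mir-54, 442 bp upstream of mir-55 and 579 bp upstream of mir-56, and in no promoter window of a protein-coding gene.

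On chromosome IV, mir-53 (11027593 to 11027691, minus strand, intergenic) had a summit 122 bp upstream with a score of 1722, from 936 in replicate 1 and 777 in replicate 2. Its neighbour mir-51 (11026013 to 11026112) had a weaker one 728 bp upstream, with 357, from 176 in replicate 1 and 185 in replicate 2. Elsewhere on that chromosome, mir-52 (14034008 to 14034107, plus strand) had a summit 377 bp upstream that scored 1231, from 708 in replicate 1 and 537 in replicate 2. A second summit 165 bp upstream of mir-52 scored 616, with 136 and 394 in the replicates, within 1 broad peak of 14032624 to 14034531. The family spans rank 97 to rank 5777, and both replicates held each of its summits. No label says how reads from near-identical copies were treated.

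The bases 50 bp to either side of each cluster's strongest summit, and of those at mir-80 and mir-90 described farther on, are shown on the strand of the miRNA gene (RefSeq WBcel235), since they are the sequence under the peaks. Capitals mark the words searched, which were GAACAC or GAACAT or GAACGC or GAACGT and CGGAA or CGGAG or TGGAA or TGGAG, both described for LIN-14, on both strands and with overlaps allowed.

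mir-54 to mir-56, chrX:13145316-13145416: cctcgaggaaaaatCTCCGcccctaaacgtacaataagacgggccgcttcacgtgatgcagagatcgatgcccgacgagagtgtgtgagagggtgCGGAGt
mir-53, chrIV:11027763-11027863: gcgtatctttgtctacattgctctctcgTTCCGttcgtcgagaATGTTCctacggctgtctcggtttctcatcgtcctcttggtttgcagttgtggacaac
mir-52, chrIV:14033581-14033681: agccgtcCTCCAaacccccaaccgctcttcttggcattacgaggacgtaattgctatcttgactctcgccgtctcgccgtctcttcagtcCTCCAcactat
mir-51, chrIV:11026790-11026890: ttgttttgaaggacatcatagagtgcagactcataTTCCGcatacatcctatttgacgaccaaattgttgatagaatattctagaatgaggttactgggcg
mir-80, chrIII:8865558-8865658: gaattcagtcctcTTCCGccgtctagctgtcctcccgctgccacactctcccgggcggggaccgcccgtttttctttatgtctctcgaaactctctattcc
mir-90, chrIII:8874329-8874429: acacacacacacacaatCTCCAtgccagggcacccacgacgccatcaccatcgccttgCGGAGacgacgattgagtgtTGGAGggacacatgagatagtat

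Among these windows only that of mir-53 held the longer word, as ATGTTC on the opposite strand. Over the 67 distinct summits in the windows of the 255 genes, 8 (11.9%) had 1 of the longer words within 50 bp, against 12.6% of all 11507 summits. One of the shorter words was present at 47 of 67 (70.1%), against 56.9% of all summits, with 1.0 and 0.846 matches per window. These are matches of letters and do not show which bases the protein bound.

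A LIN-14 summit was found at 65 of the 255 microRNA genes (25.5%, 95% exact binomial interval 20.3 to 31.3%), against 20.9% of the 19973 protein-coding genes with the same rule. The protein-coding share lies within that interval, near its lower end. Inside protein-coding genes the share was 32 of 105 (30.5%, interval 21.9 to 40.2%) and among intergenic genes it was 33 of 150 (22.0%, interval 15.7 to 29.5%). If every base of the genome is taken in turn as a 5′ end, on either strand, 12.6% have a summit in the window, with 9.84% inside protein-coding spans and 17.2% outside them. The interval of the inside group lay above the value for positions inside genes, while that of the intergenic group held the value for positions outside them. Within the inside group, 27 of 73 genes on the host strand (37.0%, interval 26.0 to 49.1%) and 5 of 32 on the opposite strand only (15.6%, interval 5.28 to 32.8%) had a summit. Those intervals overlap, and in the list called on both replicates without a threshold the order was turned round, with 43.8% on the host strand and 56.2% on the opposite one.

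Each replicate gave similar shares. The 11507 highest scoring peaks of replicate 1 were put in place of the IDR list. Then 72 of 255 genes had a summit (28.2%, interval 22.8 to 34.2%), against 21.4% of protein-coding genes, below that interval. With those of replicate 2 it was 68 (26.7%, interval 21.3 to 32.5%), against 21.7%, within the interval. Genes of a cluster are counted separately in both intervals. The inside share stood at 30.5% in replicate 1 and 31.4% in replicate 2, and the intergenic share at 26.7% in replicate 1 and 23.3% in replicate 2. The inside share was the higher in both, with overlapping intervals.

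**Figure D1:**
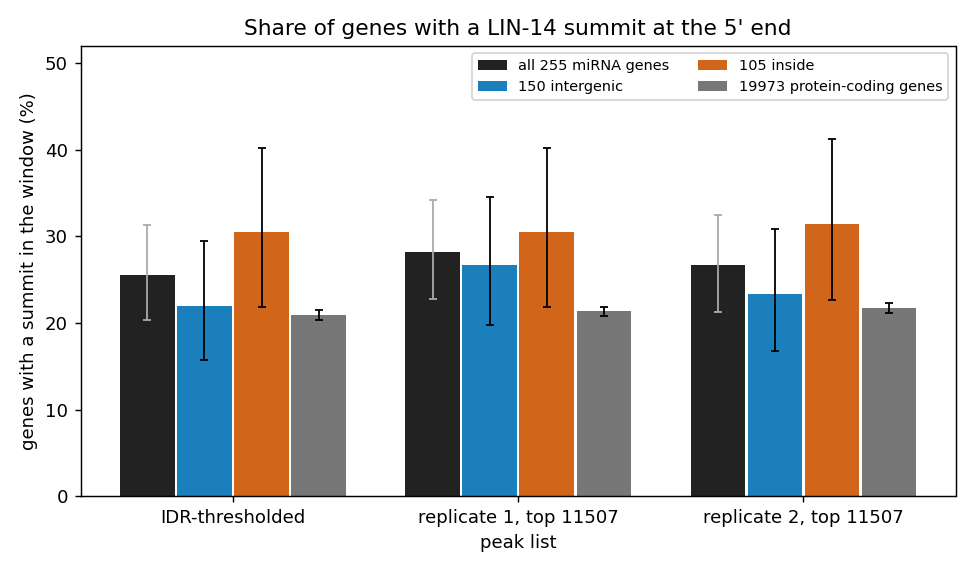
Percentage of genes with a LIN-14 summit in the window (y axis) in the IDR-thresholded list and in the 11507 highest scoring peaks of each replicate (x axis), with 95% exact binomial intervals that cover counting of genes only. In each list the bars run from all 255 miRNA genes through the intergenic and inside groups to protein-coding genes. Protein-coding genes stand at 20.9% in the first list, within the interval of all miRNA genes. They stand at 21.4% in replicate 1, below it (22.8 to 34.2%), and at 21.7% in replicate 2, within it (21.3 to 32.5%).

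By chromosome, microRNA genes on the autosomes had a summit in 49 of 184 cases (26.6%, interval 20.4 to 33.6%), against 19.4% of autosomal protein-coding genes, just under that interval, which counts genes of a cluster separately. On X, 16 of 71 had one (22.5%, interval 13.5 to 34.0%), against 30.6% of protein-coding genes there, within the interval. The share was highest on chromosome III, with 13 of 27 (48.1%, interval 28.7 to 68.1%), against 25.0% of protein-coding genes, and 5 of those 13 genes stand on 2 shared summits. On chromosome V it was 3 of 26 (11.5%, interval 2.45 to 30.2%), against 15.4% of protein-coding genes there, within the interval.

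The strongest summits were at 58 distinct positions, since 5 of them served 12 genes of a cluster or a divergent pair. Of the 65 genes, 54 had 1 summit in the window and 11 had 2. The score of the strongest summit ran from 150 to 3502 with a median of 524, and protein-coding genes with a summit also had a median of 524. These medians count a shared summit once for each gene. Over the 58 distinct positions of the microRNA genes the median was 425.5. Counted by gene, it was 833 for inside genes and 402 for intergenic genes. The summit was among the 1000 highest ranks of the 11507 peaks for 18 genes, which stand on 14 distinct summits. The same share of protein-coding genes is not given here. It lay outside protein-coding spans for 36 genes, in an intron for 24, in a coding exon for 3 and in a UTR for 2.

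**Figure D2:**
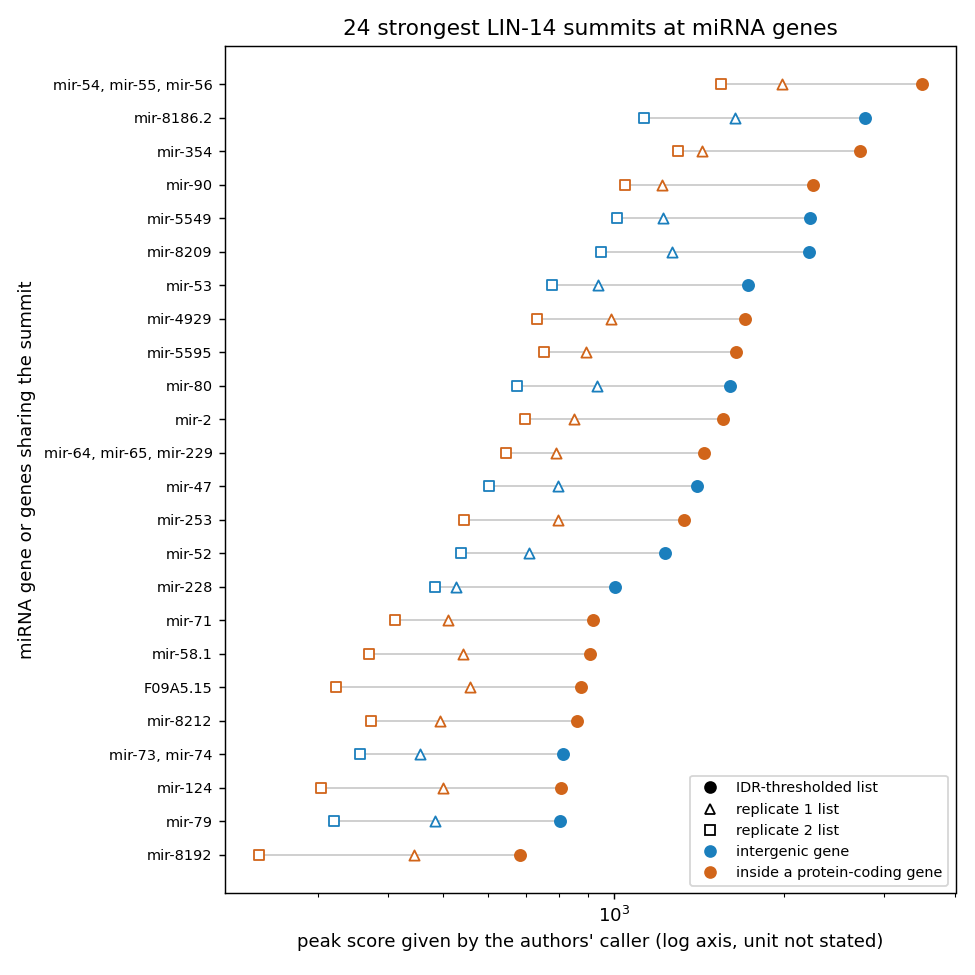
Peak score on a log axis (x) for the 24 strongest distinct summits at miRNA genes (y), with filled circles for the IDR-thresholded list, open triangles for replicate 1 and open squares for replicate 2, coloured by gene class. The summit at mir-54, mir-55 and mir-56 has the highest score in all 3 lists, 3502, 1980 and 1543.

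Replicates ordered the summits alike. Of the 58 positions, 57 had a summit within 100 bp in both replicate lists. The exception was mir-271, whose strongest summit (score 378) was matched in replicate 1 only (244). A second thresholded summit at mir-271, 10 bp past its 5′ end, scored 256, with 91.1 in replicate 1 and 175 in replicate 2. Between the replicates, Spearman's rho over the 57 positions was 0.95 and Pearson's r on log2 scores 0.96. These describe peaks of the same 2 libraries, kept because both had them. The median log2 ratio of replicate 1 to replicate 2 was 0.42 (SD 0.36 over positions), against 0.35 (SD 0.41) over all 11120 matched peaks, and replicate 1 was the higher at 53 of the 57. The widest gaps were at mir-62, with 206 in replicate 1 and 72.3 in replicate 2, and at mir-87, with 270 and 99.6.

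For 61 of 65 genes (93.8%) the strongest summit lay upstream of the 5′ end, against 93.9% of protein-coding genes with a summit, in a window of which 83.3% is upstream. For 49 genes (75.4%) it lay within 500 bp upstream, against 68.7% of protein-coding genes with a summit. The median position was 275 bp upstream, with 229 bp for intergenic and 340 bp for inside genes, against 248 bp for protein-coding genes. In the bin from 400 to 200 bp upstream there were 8.67 summits per 100 intergenic genes and 13.3 per 100 inside genes, against 5.64 per 100 protein-coding genes. In the last 200 bp before the 5′ end, intergenic genes had 8.0 and inside genes 6.67 summits per 100, against 7.95 for protein-coding genes, their highest value. Bins far from the hairpins could be as full, with 8.67 per 100 intergenic genes from 1800 to 1600 bp upstream and 9.52 per 100 inside genes from 3000 to 2800 bp upstream. Genes of 1 cluster count the same summit several times, and the miRNA bins named hold from 7 to 14 summits each.

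**Figure D3:**
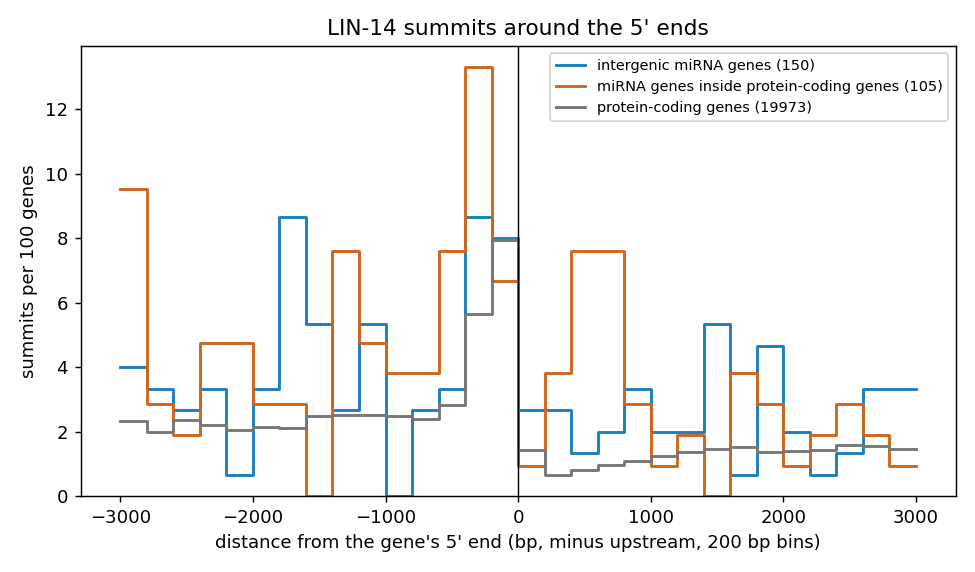
LIN-14 summits per 100 genes (y) in 200 bp bins of distance from the gene's 5′ end (x, minus upstream) for intergenic miRNA genes, miRNA genes inside protein-coding genes, and protein-coding genes. The inside group is highest between 400 and 200 bp upstream (13.3), the intergenic group stands at 8.67 both there and between 1800 and 1600 bp upstream, and protein-coding genes are highest in the last 200 bp (7.95).

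**Figure D4:**
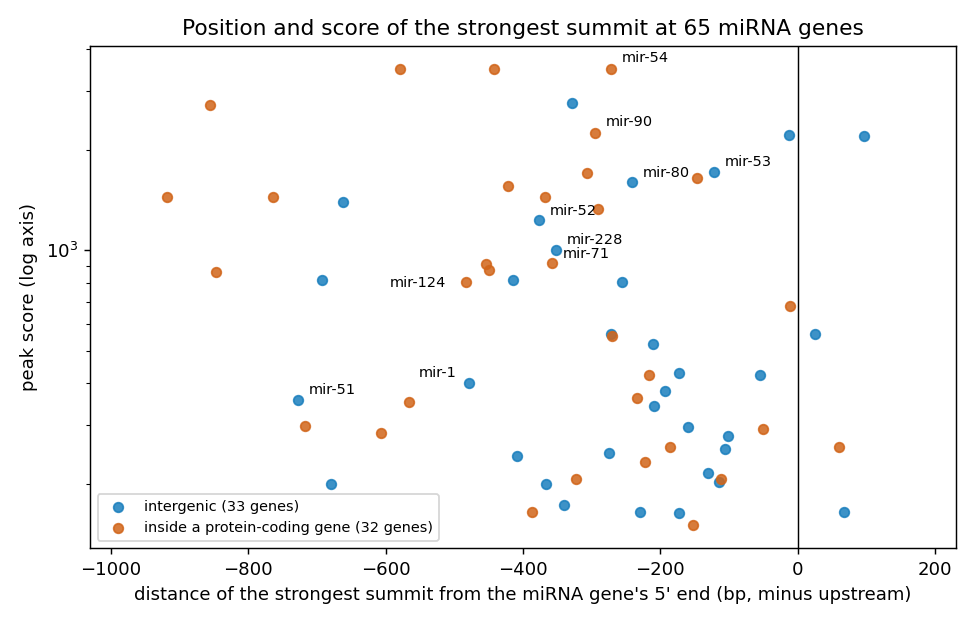
Distance of the strongest summit from the 5′ end (x, bp, minus upstream) and its score on a log axis (y) for the 65 miRNA genes with a summit, coloured by class. Of the points, 61 lie left of the 5′ end and 49 of those within 500 bp, with the cluster of mir-54, mir-55 and mir-56 at the top (3502).

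Some microRNA summits could not be told from those of a protein-coding gene. For 19 of the 65 genes the strongest summit also lay in the promoter window of a protein-coding gene (any annotated transcript), 11 of them inside such a gene and 8 intergenic. Some of the highest scores are of this kind. The summit at mir-8186.2 on chromosome II (2770, replicates 1637 and 1131) is also in the window of gmeb-1. That at mir-354, whose hairpin overlaps a coding exon of rps-20, a ribosomal protein gene, scored 2718 (replicates 1432 and 1299) and is shared by ekl-4 and rps-20. The summit at mir-5549 (2221, replicates 1222 and 1014) is shared by rfc-4, a subunit of replication factor C, and eef-1A.1, which encodes translation elongation factor 1A. The other 46 genes, 25 intergenic and 21 inside, had a strongest summit in no such window. The share of all thresholded summits that lie in such windows is not given here. The count of 19 can therefore not be read as particular to microRNA genes.

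For the 73 genes on the strand of their host, the host promoter was also examined. It held a summit, at any annotated transcript, for 27 of the 66 distinct hosts (40.9%, interval 29.0 to 53.7%), against 23.0% of all protein-coding genes. A gene with more annotated transcript starts has more windows, and hosts were not matched with other genes for this or for length. Some hosts hold several microRNA genes, so the 27 hosts with a summit are those of 30 of the 73. For 15 of those 30 the microRNA window held a summit as well. In 8 cases the microRNA's strongest summit was itself in the host's window. Another 12 genes had a summit in their own window and none at the host promoter, and 31 had neither. Among the 12 were mir-124 in trpa-1, mir-58.1 in phkb-1 and the genes mir-229, mir-64 and mir-65 in gcn-1.

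Bantam-related genes, named for the fly microRNA bantam, had summits at mir-80 and mir-58.1. There was none in the windows of mir-81, mir-82, mir-58.2 and Y73B6A.17, which is annotated as mir-58c. The gene mir-80, which restrains the response to dietary restriction, is intergenic on chromosome III (8865270 to 8865367, minus strand). Its summit 241 bp upstream scored 1601, rank 700, with 934 in replicate 1 and 675 in replicate 2. At mir-58.1 on chromosome IV (3233254 to 3233350), in an intron of phkb-1, a summit 454 bp upstream scored 908, with 542 in replicate 1 and 370 in replicate 2. Their mature sequences are shown because the seeds differ in the last base.

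mir-80: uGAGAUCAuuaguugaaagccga
mir-58.1: uGAGAUCGuucaguacggcaau

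With the whole seed GAGAUCA, 1 of 6 genes, mir-80, had a summit. The others were mir-81, mir-82, mir-58.2, Y73B6A.17 and mir-2209.1. The nearest summit to mir-81 lay 1647 bp downstream of its 5′ end and that to mir-82 2635 bp downstream. The neighbourhood of mir-80 held further summits, since mir-238 and mir-90 lie within 8717 bp of it on the same strand. The summit 209 bp upstream of mir-238, a gene with reported effects on ageing, scored 343 (replicates 217 and 126). That 295 bp upstream of mir-90, in an intron of K01F9.2, scored 2247, rank 344 (replicates 1215 and 1048), and a second one there scored 265.

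Of 15 seeds carried by 3 or more of the genes, ACCCGUA and UUGUACU had a summit at every gene, 6 had one at some genes and 7 at none. The second of these belongs to mir-238, mir-239.1 and mir-239.2. The last 2 genes diverge from 1 summit on chromosome X that scored 200 (replicates 121 and 97.3), 367 bp upstream of mir-239.1 and 679 bp upstream of mir-239.2, so the family rests on 2 peaks. With the seed AUGACAC, 3 of 5 genes, mir-229, mir-64 and mir-65, stood on 1 summit in a gcn-1 intron on chromosome III, which scored 1441 (replicates 789 and 645) and lay 368 bp upstream of mir-229. Their cluster mate mir-66 was left out by 24 bp, with that summit 1024 bp upstream. Of 6 genes with GGCAAGA, mir-73 and mir-74 had a shared summit with a score of 814 (replicates 454 and 356). Of 3 with GAUAUGU, mir-62 and mir-90 had one. Among the 7 seeds without a thresholded summit were CACCGGG of the mir-35 family and GACUAGA of mir-44, mir-45, mir-61 and mir-247. The windows of mir-42, of the first seed, and mir-44, of the second, did hold a peak in both replicate lists, as described under other observations. Both replicate lists also held weaker peaks in the windows of mir-35 to mir-40, mir-45 (47.0 and 38.7) and mir-61 (87.4 and 40.7).

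Of the 8 genes of the mir-35 family, which are redundantly essential in embryos, none had an IDR-thresholded summit in the window. Of these genes, mir-35 to mir-41 form a cluster on chromosome II opposite Y62F5A.9, and mir-42 lies apart from them. For mir-35 to mir-39 a peak below the threshold was present, 440 bp upstream of mir-35, with a score of 133 and rank 12317 in the joint list, below the lowest thresholded score of 147.5. It scored 72.0 in replicate 1 and 70.9 in replicate 2. The nearest thresholded summit lay 2612 bp upstream of mir-35, with a score of 890. At mir-42 both replicate lists held a peak in the window, with 207 in replicate 1 and 154 in replicate 2, that the joint list lacks.

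Of 3 genes tied to starvation or feeding, mir-71 and mir-80 had a summit and mir-235 had none. The gene mir-71, which promotes survival of starved L1 larvae and long life, lies in an intron of ppfr-1 on chromosome I (9379927 to 9380020, minus strand). Its summit 358 bp upstream scored 917, with 510 in replicate 1 and 410 in replicate 2. In the same host, mir-2 had a summit 421 bp upstream that scored 1558 (replicates 850 and 696), and the ppfr-1 promoter had a summit too. The gene mir-235, which keeps blast cells quiescent in starved L1 larvae, had its nearest thresholded summit 1181 bp upstream with a score of 419, and a weak peak in the window had 33.1 in replicate 1 and 33.7 in replicate 2.

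Among neuronal microRNAs, mir-124, which is conserved and acts in sensory neurons, had a summit 483 bp upstream within trpa-1 that scored 805 (replicates 500 and 304), and a second of 156. At mir-273, described in the ASE taste neurons, a summit scored 206 (replicates 134 and 75.5). The gene lsy-6, which sets left and right identity of the ASE neurons, had no peak in the window in any of the 4 lists, and its nearest thresholded summit lay 5984 bp upstream. The windows of mir-790 and mir-791, of carbon dioxide sensing neurons, were also empty in all 4 lists.

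At mir-1, the conserved microRNA of muscle, a summit 478 bp upstream scored 402, near the median of all thresholded peaks (359), with 244 in replicate 1 and 158 in replicate 2. The gene mir-228, whose promoter is active in glia, had a summit 352 bp upstream with 1005 (replicates 527 and 484). Summits were also found at mir-79 of the epidermis (802, replicates 484 and 320) and mir-57, which acts in posterior fates (429, replicates 263 and 167). Lower scores belonged to mir-60 of the intestine (254, replicates 138 and 107) and mir-83, which acts in gonad migration (165, replicates 111 and 43.4). No thresholded summit was in the windows of mir-34, mir-246, mir-240, mir-786, mir-259 and mir-61. Over the 40 genes with a described role that were listed, 20 had a summit, among them all 6 genes of the mir-51 family, against 65 of all 255 genes. That list was drawn up with earlier results known. All its genes but mir-786, mir-790 and mir-791 are among those named mir-1 to mir-392 or lsy-6. In that larger group 42 of 111 (37.8%) had a summit, as described under other observations.

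The remaining genes among the 20 strongest have no role that is stated here. They are mir-8209 (2207, replicates 1268 and 948, with the summit 97 bp inside the gene), mir-4929 in E01G4.3 (1704, replicates 989 and 732) and mir-5595 opposite nurf-1 (1644, replicates 892 and 753). They also include mir-47 (1400, replicates 798 and 602) and mir-253 in F44E7.5 (1330, replicates 796 and 543). The summits at mir-4929, mir-5595 and mir-253 also lie in the promoter window of the gene around them.

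At 190 of the 255 genes no thresholded summit lay in the window. The nearest was at a median of 4513.5 bp, up to 3000 bp away for 74 genes and over 10000 bp for 54. Just outside the window were mir-353 with a summit 1011 bp upstream (score 1086), mir-66 as above, mir-268 with one 35 bp past the downstream edge (176), mir-1829.3 with one 67 bp past it (212) and mir-45 with one 85 bp past it (483). Just inside by score was mir-261, at 150. Both whole replicate lists held a summit in the window of 29 of the 190 genes, replicate 1 only in 15, replicate 2 only in 19 and neither in 127.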

How the data were processed

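LIN-14 ChIP-seq peak lists were deposited on ce11: 1 per replicate (25357 and 27170 peaks), 1 called on both together (24683) and 1 IDR-thresholded (11507), called against a control file, per the deposited README texts. The sources used here name no aligner, caller, IDR threshold or read depth. Each deposited peak has a score, used to rank and describe peaks within a list, and a −log10 q-value, deposited with a ceiling of 4.29 that 84.3% of thresholded peaks reach and not used for ranking. The summit is an offset deposited by the authors.

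Genes came from Ensembl release 115 (WBcel235), and all 255 were matched by WormBase identifier to a RefSeq symbol. Sequence came from the RefSeq copy of the assembly, whose lengths held every peak. Summits were assigned with Python 3.11.15 and NumPy 2.4.6, intervals made with SciPy 1.17.1, and assignment was tested on simulated data. Replicate summits were matched within 100 bp. No group comparison was possible, so no p-value is given. The genes named were the 20 with the highest scores, all those in a list of described roles, and up to 5 just outside the window or below the threshold, besides genes sharing a summit. Others (mir-62, mir-87, mir-271, mir-261, mir-73, mir-74 and members of shared seeds with a low score or no summit) were named after their values were seen. The 255 genes were set by the annotation, but the genes named and the list of roles were chosen with earlier results of these data known.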

Additional observations from a re-analysis of the deposited data

How the results depend on the processing

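Of 11 other settings, the share of all 255 genes moved outside its interval in 4: to 39.2% when the window was widened to 2000 bp before and 500 bp past the 5′ end, 15.3% with the stronger 50% of the peaks, 38.8% with the whole pooled list and 18.4% without summits in protein-coding promoter windows. Protein-coding genes then had 28.0%, 13.9% and 29.9% in the first 3. The intergenic share moved to 40%, 12% and 32.7% in those 3, and the inside share to 20% with the stronger 50%, 47.6% with the pooled list and 21.0% without shared summits. With the wider window the intergenic share (40%) was above the inside share (38.1%), so that order was turned round. Counting clusters once gave 26.7% (59 of 221). Without replicate 2 or replicate 1 the share of all genes ran from 26.7 to 28.2%, the intergenic from 23.3 to 26.7% and the inside from 30.5 to 31.4%. All 40 replicate ranks of the 20 strongest genes were within 1.5 times the main rank. No paired analysis was possible because there was 1 group. Depth is unknown, so genes without a summit cannot be called unoccupied.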

Other observations

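Genes with low numbers, the first to be named, had summits more often than later ones. Of the 111 genes named mir-1 to mir-392 or lsy-6, 42 had a summit (37.8%, 95% exact interval 28.8 to 47.5%), and of the 144 others, 23 (16.0%, interval 10.4 to 23.0%). With replicate 1 alone it was 41.4 against 18.1%, and with replicate 2 alone 39.6 against 16.7%. It stood at 33.3 against 12.3% among intergenic and at 45.2 against 20.6% among inside genes. This split was chosen after the values were seen, and genes of a cluster share summits.

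At mir-42, mir-43 and mir-44 on chromosome II, both replicates had a peak in the window that is absent from the joint list. It scored 207 in replicate 1 (rank 5727, width 194 bp, 259 bp upstream of mir-42) and 154 in replicate 2 (rank 6145, width 105 bp, 212 bp upstream). Among 9732 peaks matched between the 11507 highest of each replicate, 108 (1.11%) overlapped no peak of the joint list, and these 3 genes were the only ones of the 255 with such a summit. The median width of the 108 was 242 bp, against 322 bp for all matched peaks.

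Where a window held 2 summits, most pairs stood at a similar spacing. Of 9 distinct pairs, 8 were 200 to 220 bp apart and the other, at mir-8192, 927 bp. At mir-2, mir-47, mir-52 and mir-90 both summits of the pair carry the same peak bounds. The spacing of neighbouring summits over the whole thresholded list is not given here, so this spacing cannot be called particular to microRNA genes. Whether the 2 summits of such a pair are separate sites was not tested.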
